A study of Mus musculus with 20 samples.

Results

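The secreted TGF-beta superfamily ligands Gdf15, Tgfb1, Tgfb2, Inhba, Inhbb and Bmp7 were followed through 3 forms of acute kidney injury in the mouse. The members were chosen by gene symbol, and all 6 were found among the 6025 genes of the table. All animals were wild-type C57BL/6 mice aged 8 weeks (the protocol gives the substrain as C57BL/6J), and RNA came from the renal cortex as polyadenylated RNA in stranded libraries. The groups were controls (n = 8), ischemia-reperfusion injury (IRI, interruption and return of renal blood flow) at 24 h (n = 4), rhabdomyolysis (muscle breakdown that releases myoglobin) at 24 h (n = 4) and cisplatin (a DNA-damaging drug toxic to the tubule) at 72 h (n = 4). The controls carry the label mock. The series text describes them as mock and vehicle animals, and which control received which is not given in the sources used here. Each library is 1 biological replicate per the series text.

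TGF-beta family ligands are secreted dimers that bring together type I and type II receptor kinases on the target cell, and the receptors then phosphorylate Smad transcription factors. TGF-beta and the activins signal mainly through Smad2 and Smad3 and are known in the kidney for fibrosis and growth arrest, whereas BMP7 signals through Smad1, Smad5 and Smad9 and is known for nephron formation and for maintenance of the tubule. GDF15 is a distant member that is induced by cell stress and acts on a receptor in the hindbrain. Tgfb1 and Tgfb2 encode TGF-beta ligands that are kept latent by their own propeptides, and Inhba and Inhbb encode the beta subunits of activin A and activin B.

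The regions just upstream of the genes are shown for 3 members that were higher in all 3 injuries (Gdf15, Tgfb1, Inhbb) and for Tgfb2, which was higher in rhabdomyolysis but not called in the other injuries. Each sequence is the 250 bases before the RefSeq start in GRCm38.p6, 5′ to 3′ on the gene's own strand. An entry was found for 5 of the 6 members, Bmp7 being the one without. Capitals mark matches, on either strand, to any of 8 motifs: AP-1 (TGANTCA), the SMAD box (GTCTAGAC), CRE (TGACGTCA), the C/EBP-ATF composite (TGATGNAAN), the SMAD single repeat (CAGACA), the E-box (CACGTG), the GC box (GGGCGG) and the TATA box (TATAAA).
Gdf15, chr8:70632457-70632706, minus strand: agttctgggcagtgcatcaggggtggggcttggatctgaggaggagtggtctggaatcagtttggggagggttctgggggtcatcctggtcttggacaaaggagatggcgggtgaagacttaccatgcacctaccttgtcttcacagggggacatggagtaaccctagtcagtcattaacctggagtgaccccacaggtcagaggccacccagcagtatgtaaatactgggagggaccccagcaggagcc
Tgfb1, chr7:25686752-25687001, plus strand: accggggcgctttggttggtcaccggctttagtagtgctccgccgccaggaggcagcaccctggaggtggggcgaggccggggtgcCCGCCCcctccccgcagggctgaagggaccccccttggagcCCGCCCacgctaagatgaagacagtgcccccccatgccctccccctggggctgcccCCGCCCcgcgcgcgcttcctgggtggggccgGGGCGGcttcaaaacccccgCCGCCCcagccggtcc
Tgfb2, chr1:186705990-186706239, minus strand: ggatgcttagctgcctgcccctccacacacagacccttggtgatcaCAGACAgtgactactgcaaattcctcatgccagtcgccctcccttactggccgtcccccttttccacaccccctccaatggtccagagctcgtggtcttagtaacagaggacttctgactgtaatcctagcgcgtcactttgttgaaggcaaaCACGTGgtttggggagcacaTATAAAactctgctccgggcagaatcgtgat
Inhbb, chr1:119422249-119422498, minus strand: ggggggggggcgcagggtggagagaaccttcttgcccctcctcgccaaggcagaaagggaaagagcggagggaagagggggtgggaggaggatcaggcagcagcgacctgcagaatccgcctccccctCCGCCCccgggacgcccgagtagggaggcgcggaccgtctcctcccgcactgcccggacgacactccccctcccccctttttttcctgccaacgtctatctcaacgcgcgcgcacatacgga

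The Tgfb1 window held 5 matches to the GC box, 1 on the plus strand and 4 on the minus strand, and the Inhbb window held 1. Both windows had 21 CpG dinucleotides, with a GC content of 75.2% for Tgfb1 and 68.0% for Inhbb, against medians of 52.4% GC and 6 CpG over 32851 promoters. The Gdf15 window had 1 CpG and none of the 8 motifs, and the window before a second RefSeq start of Gdf15 held 1 E-box. The Tgfb2 window held a SMAD single repeat at bases -204 to -199, an E-box at -51 to -46 and a TATA box at -31 to -26, counted from the start site. Inhba held 1 TATA box. Of all promoter windows of this length, 32.7% held the GC box, 17.1% the SMAD single repeat, 12.4% the TATA box, 6.75% AP-1, 6.02% the E-box, 3.44% the C/EBP-ATF composite, 1.55% CRE and 0.167% the SMAD box. These matches describe letters in a window and are not measured binding.

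Values are CPM, reads scaled to an effective library size set by the authors in M (mega) reads. The table held 3.48 to 5.40 M reads per library, 42.1% to 70.6% of that size. All genes of the table, the members included, lay at least 1.5-fold away from the controls' mean for 1 or more injuries, so that a called change is partly what brought a gene into the table. Each injury was compared with the 4 controls whose library identifiers fall in its own range (controls 1 to 4 for IRI, controls 5 to 8 for rhabdomyolysis and cisplatin). A change was called at a Benjamini-Hochberg adjusted p under 0.05 in limma on log2(CPM + 1), among the 5672 genes whose mean reached 1 CPM. Of the members, 5 met that minimum and Inhba did not. Between the controls of both ranges limma called 0 of the 5 tested members and 0% of all genes. At an unadjusted p under 0.05 these counts were 1 member (Gdf15) and 454 genes, and over all genes edgeR called 0 and DESeq2 called 2.

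In IRI, 3 of the 5 tested members were higher and 1 was lower (background 40.6% of all genes tested higher, 40.1% lower and 80.7% either way). In rhabdomyolysis 4 were higher and 1 lower (background 48.8% higher, 46.5% lower and 95.3% either way). In cisplatin 3 were higher and 1 lower (background 47.8% higher, 44.0% lower and 91.8% either way). With backgrounds this high, the number of members called says little about the family, and the levels, sizes and differences between injuries are described below gene by gene.

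**Figure D1:**
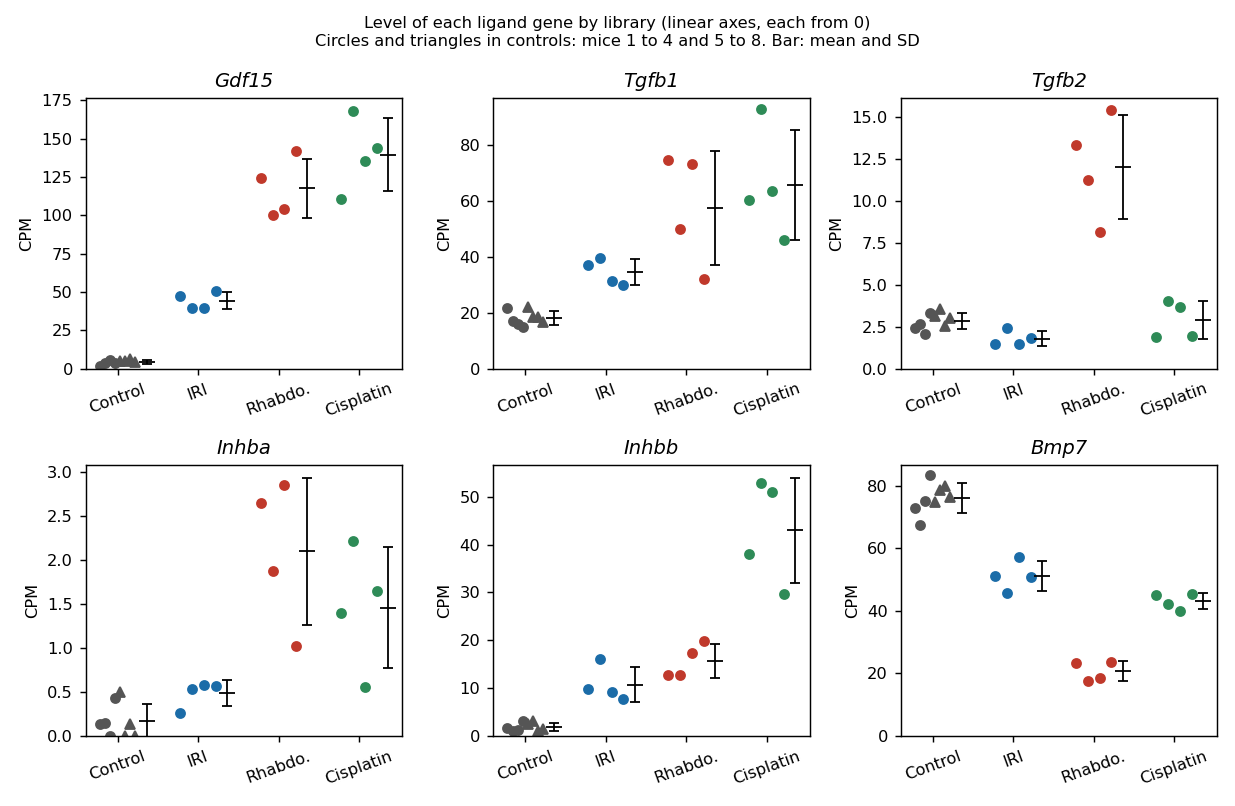
CPM of each ligand gene (vertical axes, linear, from 0) in every library by group, with circles for controls 1 to 4 and all injured mice, triangles for controls 5 to 8, and bars for the mean and SD (the lower bar of Inhba in controls runs below the axis). Gdf15 and Inhbb stand above all 8 controls in every injured library, Bmp7 stands below them, and Tgfb2 stands clear of the controls only in rhabdomyolysis.

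Gdf15 (ENSMUSG00000038508.7, GRCm38 chr8:70629393-70632456, minus strand) encodes the stress cytokine GDF15 and had the largest change of the tested members in each injury. In the 8 controls it ranged from 1.88 to 6.28 CPM with a median of 4.62, on 14 to 47 reads. The IRI libraries 1 to 4 had 47.6, 39.8, 39.5 and 50.7 CPM. The rhabdomyolysis libraries had 124, 100.1, 104 and 142 CPM. Every IRI library was above every control and below every rhabdomyolysis library. The cisplatin libraries had 111, 168, 135 and 144 CPM, overlapping those of rhabdomyolysis. The mean was 4.399 ± 1.43 CPM over controls (SD, n = 8). For the injuries (SD, n = 4 each) it was 44.4 ± 5.62 (IRI), 117 ± 19.4 (rhabdomyolysis) and 139 ± 23.8 (cisplatin).

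Over its matched controls Gdf15 was 12.2-fold higher in IRI, 22.7-fold higher in rhabdomyolysis and 27.0-fold higher in cisplatin. On the log2 scale these changes were 3.35, 4.26 and 4.50 (SE 0.19 for each; limma adjusted p = 2.71e-12, 1.15e-14 and 4.83e-15). Gdf15 was also the member whose controls came nearest to differing by identifier range: controls 1 to 4 were below controls 5 to 8 by a log2 difference of -0.46 (limma unadjusted p = 0.0239, adjusted p = 0.541).

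Tgfb1 (ENSMUSG00000002603.15, chr7:25687002-25705077, plus strand) encodes TGF-beta 1, the main fibrogenic isoform. The controls ranged from 14.96 to 22.1 CPM with a median of 17.7. The IRI libraries had 37.0, 39.7, 31.5 and 29.9 CPM, and those of rhabdomyolysis 74.5, 49.8, 73.2 and 32.0. The cisplatin libraries had 60.3, 93.0, 63.7 and 45.9 CPM. All 12 injured libraries were above all 8 controls, and the fourth rhabdomyolysis library lay within the IRI range. Tgfb1 rose 1.99-fold in IRI (log2 0.95, limma adjusted p = 4.59e-04), 3.03-fold in rhabdomyolysis (1.48, 1.29e-06) and 3.47-fold in cisplatin (1.70, 2.60e-07), each with an SE of 0.22. Group means were 18.2 ± 2.53 CPM for controls (SD, n = 8), and 34.5 ± 4.61, 57.4 ± 20.3 and 65.7 ± 19.7 for IRI, rhabdomyolysis and cisplatin (SD, n = 4 each).

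Recruited myeloid and stromal marker sums, like Tgfb1, were above all 8 controls in each injury, and resident macrophage markers were mixed. The summed CPM of recruited myeloid markers (9 of 10 listed genes in the table) was 31.1 to 39.4 in controls, 90.1 to 127 after IRI, 77.0 to 192 after rhabdomyolysis and 106 to 184 after cisplatin. The sum of stromal markers (7 of 10) was 82.1 to 178 in controls, 383 to 462 after IRI, 379 to 1087 after rhabdomyolysis and 227 to 564 after cisplatin. Of the 9 myeloid genes, 8, 9 and 8 were higher after IRI, rhabdomyolysis and cisplatin. Of the 7 stromal genes, 7, 6 and 6 were higher. None were lower, and 40.6%, 48.8% and 47.8% of all genes were higher. Ccr2 had log2 fold changes of 0.0009 in IRI and 0.62 in cisplatin (limma adjusted p = 0.999 and 0.0758). Among stromal genes, Cspg4 had -0.30 in rhabdomyolysis (adjusted p = 0.101) and Postn 0.08 in cisplatin (0.779). In rhabdomyolysis the fourth library was lowest in Tgfb1, in the myeloid sum (77.0 CPM) and in the stromal sum (379 CPM), and the first library was highest in all 3 (192 and 1087 CPM for the sums). In cisplatin the second library was highest and the fourth lowest in Tgfb1 and in the stromal sum, while the myeloid sum was highest in the third (184 CPM) and lowest in the first (106 CPM). In IRI the fourth library was lowest in Tgfb1 and both sums, while Tgfb1 was highest in the second and both sums in the first. The sum of endothelial markers (3 of 8) was 81.1 to 197 CPM in controls, 170 to 206 after IRI, 362 to 452 after rhabdomyolysis and 223 to 309 after cisplatin, and the fourth rhabdomyolysis library was second highest in it. The sum of resident macrophage markers (5 of 8) was 72.7 to 105 CPM in controls, 52.2 to 85.4 after IRI, 65.3 to 160 after rhabdomyolysis and 84.9 to 125 after cisplatin, so each injury overlapped the controls. Of its 5 genes, 1 was higher and 1 lower in IRI, and 4 were higher and 1 lower in each other injury; of all genes, 80.7%, 95.3% and 91.8% were called after IRI, rhabdomyolysis and cisplatin, so the number called says little about these markers. The complement genes C1qa, C1qb and C1qc had log2 fold changes of 0.59, 0.45 and 0.25 in IRI (limma adjusted p = 0.0306, 0.0908 and 0.41), 1.19, 1.37 and 1.08 in rhabdomyolysis and 1.28, 1.23 and 1.04 in cisplatin. The gene that was lower, Csf1r, the receptor for macrophage colony-stimulating factor, had log2 fold changes of -1.54, -0.95 and -0.85 (limma adjusted p = 1.05e-07, 3.2e-05 and 0.000137). The sum of lymphoid and platelet markers (3 of 9) was 6.19 to 10.3 CPM in controls, 4.00 to 7.35 after IRI, 3.25 to 5.20 after rhabdomyolysis and 4.24 to 4.90 after cisplatin, lower than in all controls in the latter 2 injuries. No marker of these 5 lists was at 0 in all libraries of a group. The part of these cells in the Tgfb1 level was not tested. In whole cortex, a change in the number of cells of a type and a change in RNA per cell cannot be told apart.

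**Figure D2:**
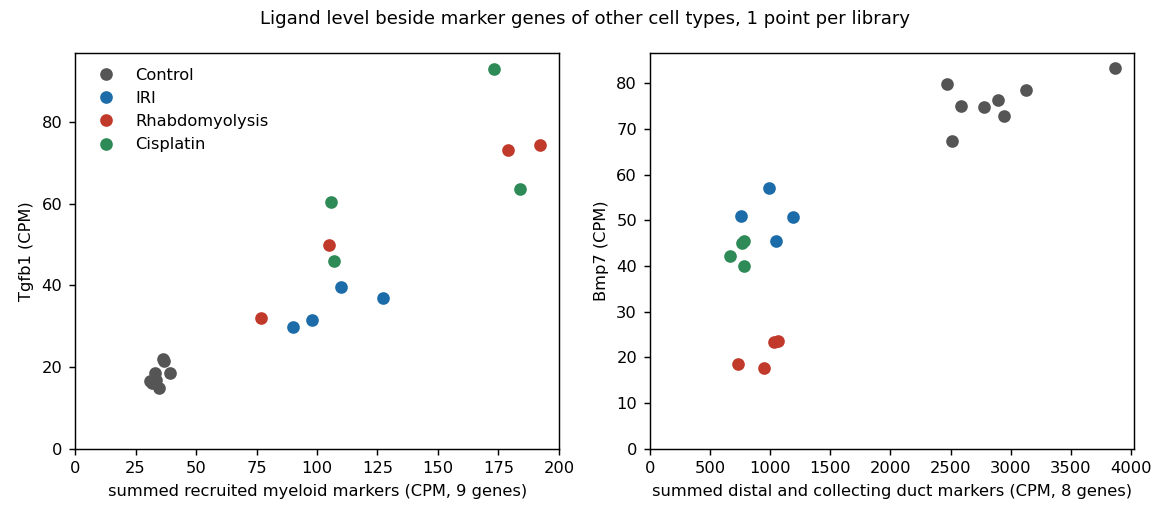
CPM of Tgfb1 against the summed CPM of recruited myeloid markers (left) and CPM of Bmp7 against that of distal and collecting duct markers (right), 1 point per library. Tgfb1 and the myeloid sum are both lowest in the controls; for Bmp7 the 4 rhabdomyolysis libraries lie lowest at a marker sum shared with IRI.

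Tgfb2 (ENSMUSG00000039239.14, chr1:186622792-186705989, minus strand) encodes TGF-beta 2, an isoform needed for kidney development, and changed in 1 injury. The controls ranged from 2.06 to 3.53 CPM with a median of 2.86. The rhabdomyolysis libraries had 13.3, 11.2, 8.17 and 15.4 CPM. All 4 were above every library of every other group. The IRI libraries had 1.44, 2.40, 1.49 and 1.83 CPM, 3 of them below all controls, and the cisplatin libraries had 1.87, 4.04, 3.69 and 1.94, overlapping the controls. The rise in rhabdomyolysis was 3.94-fold (log2 1.66, SE 0.21, limma adjusted p = 1.08e-07). The log2 difference was -0.38 in IRI (95% interval -0.80 to 0.05, adjusted p = 0.0952) and -0.11 in cisplatin (-0.53 to 0.32, adjusted p = 0.615). The IRI difference passed the threshold with quantile normalization (limma adjusted p = 0.00750) and with all 8 controls as 1 group (0.0195), and the cisplatin difference with quantile normalization (0.0312). Group means were 2.84 ± 0.494 CPM for controls (SD, n = 8), and 1.79 ± 0.440, 12.0 ± 3.10 and 2.88 ± 1.14 for IRI, rhabdomyolysis and cisplatin (SD, n = 4 each). An exon of the opposite-strand gene Gm29491 overlaps Tgfb2, and the strand setting of the counting is not given in the sources used here.

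Inhba (ENSMUSG00000041324.14, chr13:16011851-16031621, plus strand) encodes the subunit of activin A and was near the limit of detection without injury. The controls had 0 to 3 reads each, and 3 of them had 0. The IRI libraries had 2, 4, 5 and 5 reads (0.262, 0.533, 0.574 and 0.572 CPM). The rhabdomyolysis libraries had 28, 19, 30 and 9 reads (2.65, 1.87, 2.85 and 1.02 CPM), and the cisplatin libraries 12, 22, 5 and 17 (1.40, 2.22, 0.559 and 1.65 CPM). All libraries of rhabdomyolysis and cisplatin were above all controls, while the first IRI library lay within them. Mean levels were 0.167 ± 0.194 CPM for controls (SD, n = 8), and 0.485 ± 0.150, 2.098 ± 0.832 and 1.46 ± 0.690 for IRI, rhabdomyolysis and cisplatin (SD, n = 4 each).

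Pooled over libraries, the Inhba read rate was 2.87 times that of the controls in IRI (16 against 5 reads, exact 95% interval 1.01 to 10.0), 14.5 times in rhabdomyolysis (86 against 4, 5.47 to 54.5) and 10.0 times in cisplatin (56 against 4, 3.70 to 38.1). These intervals cover counting error only. With no minimum mean, limma gave adjusted p-values of 0.154 (IRI), 3.39e-06 (rhabdomyolysis) and 1.29e-04 (cisplatin). On recovered reads, the corresponding edgeR values with TMM were 0.0897, 1.20e-05 and 1.94e-04, and DESeq2 gave 0.101, 6.99e-06 and 2.26e-04. Every gene of the table was above 1 CPM in at least 4 libraries, and Inhba was so only in rhabdomyolysis and cisplatin libraries. Its place in the table may thus rest on the groups compared, and these p-values are not support independent of that selection. Exons of B230303A05Rik and Gm48444 lie on the opposite strand within Inhba, which makes so low a value uncertain where strand was not used in counting.

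Inhbb (ENSMUSG00000037035.5, chr1:119415465-119422248, minus strand) encodes the subunit of activin B and differed most in cisplatin. The controls ranged from 0.935 to 3.05 CPM with a median of 1.498, on at least 7 reads. The IRI libraries had 9.83, 16.1, 9.19 and 7.78 CPM, and the rhabdomyolysis libraries 12.8, 12.7, 17.4 and 19.8. The cisplatin libraries had 38.1, 52.9, 51.1 and 29.7 CPM, all above every other library, while IRI and rhabdomyolysis overlapped. Inhbb rose 6.21-fold in IRI (log2 2.11, limma adjusted p = 3.01e-07), 7.99-fold in rhabdomyolysis (2.53, 6.28e-09) and 21.9-fold in cisplatin (3.92, 9.59e-12), each with an SE of 0.26. Mean levels were 1.84 ± 0.875 CPM for controls (SD, n = 8), and 10.7 ± 3.69, 15.7 ± 3.51 and 42.9 ± 11.0 for IRI, rhabdomyolysis and cisplatin (SD, n = 4 each).

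Bmp7 (ENSMUSG00000008999.7, chr2:172868012-172940321, minus strand) encodes the BMP of the nephron and fell in all 3 injuries. The controls ranged from 67.4 to 83.3 CPM with a median of 75.6. The IRI libraries had 51.0, 45.6, 57.2 and 50.7 CPM, the cisplatin libraries 45.1, 42.1, 39.99 and 45.4, and the rhabdomyolysis libraries 23.4, 17.6, 18.6 and 23.5. The groups kept the order control, IRI, cisplatin, rhabdomyolysis from high to low, with no overlap between neighbours. The IRI and cisplatin ranges were barely apart (lowest IRI library 45.6 CPM, highest cisplatin library 45.4 CPM). Taken against their own controls, the IRI and cisplatin effects were not called different (log2 difference 0.29, limma adjusted p = 0.151). The controls were 1.46-fold above IRI (log2 -0.54, limma adjusted p = 1.28e-04), 1.79-fold above cisplatin (-0.83, 3.42e-07) and 3.72-fold above rhabdomyolysis (-1.86, 6.17e-13), each with an SE of 0.11. Mean levels were 76.0 ± 4.80 CPM for controls (SD, n = 8), and 51.1 ± 4.76, 43.1 ± 2.57 and 20.8 ± 3.09 for IRI, cisplatin and rhabdomyolysis (SD, n = 4 each).

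The sums of tubule markers were lower with Bmp7, and that of podocyte markers was not. The sum of distal and collecting duct markers (8 of 14 listed genes in the table) was 2471 to 3864 CPM in controls, 756 to 1194 after IRI, 735 to 1064 after rhabdomyolysis and 664 to 785 after cisplatin. The sum of proximal tubule markers (10 of 10), which check the labelled cortex, was 11170 to 15450 CPM in controls, 3265 to 4130 after IRI, 1980 to 2482 after rhabdomyolysis and 1449 to 2806 after cisplatin. Of the 10 proximal genes, 8, 10 and 10 were called lower in IRI, rhabdomyolysis and cisplatin. All 8 distal genes were called lower in each injury. Of all genes, 40.1%, 46.5% and 44.0% were lower. With quantile normalization, 6 proximal and 6 distal genes were called lower in IRI, and 7 distal genes in rhabdomyolysis. The sum of podocyte markers (3 of 6) was 177 to 484 CPM in controls, 488 to 620 after IRI, 661 to 952 after rhabdomyolysis and 523 to 646 after cisplatin. Of these 3 genes, 3, 2 and 2 were higher in the respective injuries and none were lower, where 40.6%, 48.8% and 47.8% of all genes were higher. No marker of the 3 lists was at 0 in all libraries of a group. With quantile normalization, 2 called tubule markers turned direction: the log2 fold change of Lrp2, a proximal tubule endocytic receptor, went from -0.60 to 0.04 in IRI, and that of Slc12a3, the distal sodium chloride cotransporter, from -0.65 to 0.04 in rhabdomyolysis. The distal sums of IRI and rhabdomyolysis overlapped, while their proximal sums and their Bmp7 levels did not, and both were lower in rhabdomyolysis. Between rhabdomyolysis and cisplatin the proximal sums and the distal sums overlapped. Bmp7 did not overlap there and was higher in cisplatin (mean 43.1 against 20.8 CPM). The part of tubule loss in the fall of Bmp7 was not tested.

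**Figure D3:**
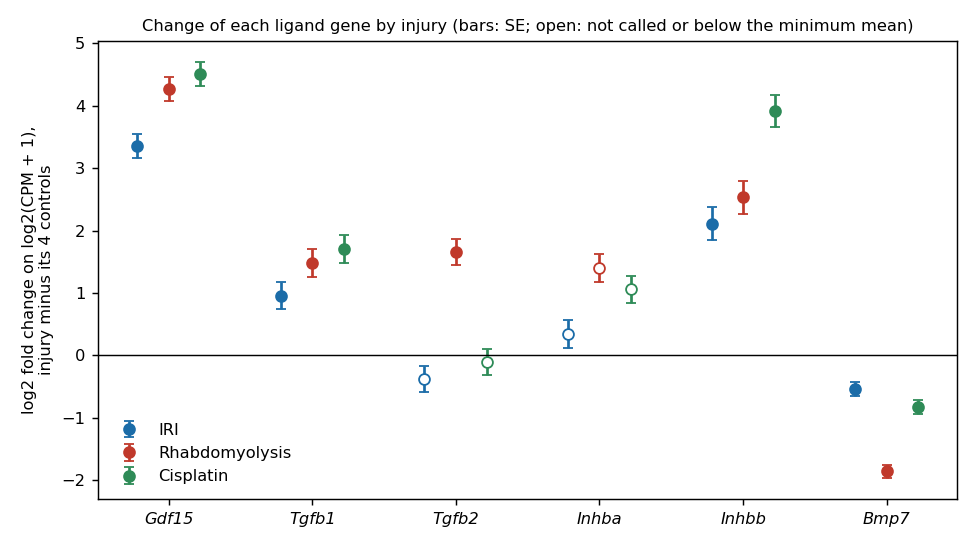
Log2 fold change on log2(CPM + 1), vertical axis, of each ligand gene in IRI, rhabdomyolysis and cisplatin against the 4 matched controls, with bars for the SE and open points where a change was not called or, for Inhba, not tested at the minimum mean (its values come from the fit without that minimum). Gdf15 ranges from 3.35 to 4.50 and Bmp7 from -0.54 to -1.86; Tgfb2 is called in rhabdomyolysis alone.

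The members did not share 1 ranking of the injuries. Rhabdomyolysis and cisplatin were compared directly, at 24 h and 72 h, so that agent and time cannot be told apart. Of the 5 tested members, 3 differed (background 54.1% of genes). Tgfb2 was higher in rhabdomyolysis by a log2 difference of 1.76 (SE 0.21, limma adjusted p = 2.58e-07). In rhabdomyolysis Inhbb and Bmp7 lay below their cisplatin levels, by -1.39 (SE 0.26, adjusted p = 1.24e-04) and -1.03 (SE 0.11, adjusted p = 5.60e-08). Gdf15 differed by -0.24 (95% interval -0.64 to 0.15, adjusted p = 0.290) and Tgfb1 by -0.22 (-0.67 to 0.23, adjusted p = 0.395).

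IRI libraries are all in the other identifier range, so IRI was compared through the difference between effects, each against its own controls. Against rhabdomyolysis, at the same 24 h, 3 of the 5 tested members differed (background 52.0%). The IRI effect was lower for Gdf15 by -0.91 (SE 0.27, limma adjusted p = 0.00763) and for Tgfb2 by -2.03 (SE 0.29, adjusted p = 8.13e-06), and the fall of Bmp7 was smaller in IRI, by 1.32 (SE 0.15, adjusted p = 6.20e-07). For Inhbb the difference was -0.42 (95% interval -1.19 to 0.34, adjusted p = 0.347) and for Tgfb1 -0.53 (-1.16 to 0.11, adjusted p = 0.153). Without the fourth rhabdomyolysis library, the Tgfb1 difference was -0.78 with a limma adjusted p of 0.0170. Without the first rhabdomyolysis library it was -0.38 and was not called.

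Against cisplatin, 2 of the 5 differed (background 30.3%): the IRI effect was lower for Gdf15 by -1.16 (SE 0.27, limma adjusted p = 0.00245) and for Inhbb by -1.81 (SE 0.37, adjusted p = 8.01e-04). Tgfb1 differed by -0.75 (95% interval -1.39 to -0.11, adjusted p = 0.0673), and by -0.90 without the fourth cisplatin library (adjusted p = 0.0269). Without the second cisplatin library the Tgfb1 difference was -0.57 and was not called. The differences were 0.29 for Bmp7 (-0.02 to 0.61, adjusted p = 0.151) and -0.27 for Tgfb2 (-0.87 to 0.33, adjusted p = 0.507). The effects in rhabdomyolysis and cisplatin share controls 5 to 8.

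To compare levels between genes, CPM was divided by the exonic length of each gene, merged over all its transcripts in GENCODE M21. This length ran from 1.85 kb for Gdf15 to 6.39 kb for Inhba. It is not the length of the expressed transcript, and comparisons between genes depend on it. Bmp7 made up 73.2% ± 2.43 of the summed CPM per kb of the 6 ligands in controls (SD, n = 8), and 27.4% ± 3.15, 5.99% ± 0.218 and 9.97% ± 1.85 after IRI, rhabdomyolysis and cisplatin (SD, n = 4 each). Gdf15 went from 9.12% ± 2.68 to 51.5% ± 4.34, 73.5% ± 4.44 and 68.4% ± 3.70 in the same order. The share of Tgfb1 stayed between 11.8% and 14.8% in the group means. The ratio of Tgfb1 to Bmp7 on this scale was 0.192 ± 0.0317 in controls, 0.545 ± 0.116 in IRI, 1.23 ± 0.404 in cisplatin and 2.25 ± 0.860 in rhabdomyolysis. Per kb, the summed level of all 6 was 25.8 ± 1.70 CPM in controls, 46.4 ± 2.09 in IRI, 86.1 ± 10.6 in rhabdomyolysis and 110 ± 17.0 in cisplatin.

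**Figure D4:**
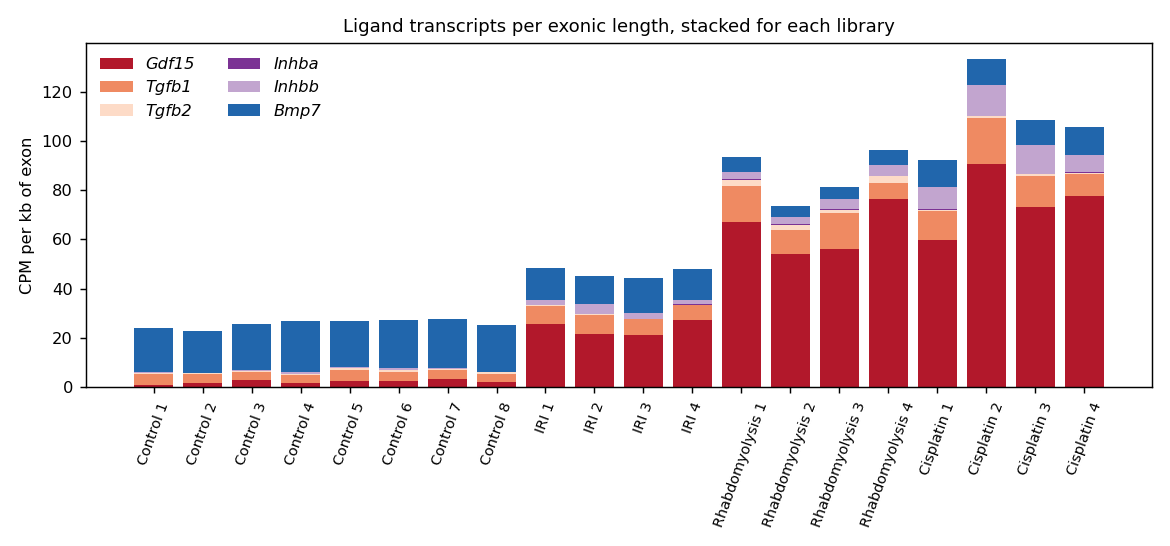
CPM per kb of exon (vertical axis) of the 6 ligand genes, stacked for each of the 20 libraries. Bmp7 fills most of each control bar, 69.1% to 77.0%, and Gdf15 is the largest part in rhabdomyolysis and cisplatin, 64.6% to 79.6%.

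The other genes of the pathway come from lists written with earlier results of these data known, and they are described by counts and medians without a set test. Over all genes tested, the median log2 fold change after IRI, rhabdomyolysis and cisplatin was 0.08, 0.31 and 0.30; with a minimum mean of 5 CPM in place of 1 CPM all 3 turned negative, to -0.06, -0.38 and -0.03. The share of all genes called either way was 80.7%, 95.3% and 91.8% in the same order, and the share called higher was 40.6%, 48.8% and 47.8%. Fold values below compare means with the matched controls, and control levels are means of all 8.

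Among 25 other ligands of the family, 5 were in the table and 3 were tested: 2 were higher in IRI, 3 in rhabdomyolysis and 1 in cisplatin. Of all genes 40.6%, 48.8% and 47.8% were higher and 80.7%, 95.3% and 91.8% called either way, and in cisplatin the median of the 3 ligands, 0.26, was below that of all genes, 0.30. Tgfb3, the third TGF-beta isoform, went from 2.33 ± 0.795 CPM in controls (SD, n = 8) to 10.3 ± 2.60 in rhabdomyolysis (SD, n = 4), a 4.44-fold rise (limma adjusted p = 9.08e-08), and rose 1.76-fold in IRI and 2.05-fold in cisplatin (adjusted p = 0.00782 and 0.00149). Bmp3 rose 2.19-fold in IRI and 2.27-fold in rhabdomyolysis (adjusted p = 0.00230 and 0.00135) and was 1.25-fold in cisplatin (adjusted p = 0.359).

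Of 7 receptors and co-receptors tested, 5 were higher and 1 lower in IRI, and 6 were higher and 1 lower in each other injury, with medians of 0.62, 1.30 and 0.86 in IRI, rhabdomyolysis and cisplatin. Among all genes 80.7%, 95.3% and 91.8% were called, so the number of receptors called says little about them. Tgfbr1, the type I receptor of TGF-beta, rose from 67.8 ± 16.3 CPM in controls to 137 ± 17.99 after IRI, 249 ± 45.4 after rhabdomyolysis and 144 ± 19.2 after cisplatin (limma adjusted p = 3.55e-05, 2.85e-09 and 1.04e-05). Tgfbr2, the type II receptor, rose 1.96-fold, 2.07-fold and 2.47-fold in the same order. Cd109, a TGF-beta co-receptor, went from 0.777 ± 0.333 CPM in controls to 1.71 ± 0.611 after IRI, 3.57 ± 1.16 after rhabdomyolysis and 12.8 ± 1.65 after cisplatin, a 16.2-fold rise in the latter (adjusted p = 2.85e-11).

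Of 8 Smad and other intracellular genes tested, 6 were higher and none lower in IRI, 7 higher and 1 lower in rhabdomyolysis, and 6 higher and 1 lower in cisplatin. The number called is near the share over all genes (80.7%, 95.3% and 91.8%). Tgif1, a corepressor of Smads, rose 2.35-fold in IRI, 5.66-fold in rhabdomyolysis and 5.60-fold in cisplatin (limma adjusted p = 3.43e-07, 1.46e-12 and 3.06e-12). Smad1, which transduces BMP signals, rose 1.63-fold, 2.35-fold and 2.57-fold, and Pmepa1, an inhibitor induced by TGF-beta, 1.92-fold, 2.26-fold and 1.93-fold. The gene that was lower in rhabdomyolysis and cisplatin was Smad9, described with the BMP targets.

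Of 11 extracellular inhibitors tested, 6 were higher and 2 lower in IRI, 7 higher and 3 lower in rhabdomyolysis, and 8 higher and 2 lower in cisplatin. The number called is no higher than the share over all genes (80.7%, 95.3% and 91.8%). Nbl1, a secreted BMP antagonist, rose from 4.86 ± 0.867 CPM in controls to 14.8 ± 1.26 after IRI, 31.3 ± 3.29 after rhabdomyolysis and 55.9 ± 7.07 after cisplatin (limma adjusted p = 1.11e-08, 3.52e-13 and 4.43e-15). Chrdl1, a chordin-like antagonist, fell from 7.80 ± 4.12 CPM to 0.557 ± 0.430 in IRI and 0.855 ± 0.412 in rhabdomyolysis (adjusted p = 1.04e-06 and 4.09e-06) and was 4.39 ± 1.88 in cisplatin (adjusted p = 0.0967).

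Of 15 genes that release or process the ligands, 11 were higher and 2 lower in IRI, 10 higher and 5 lower in rhabdomyolysis, and 10 higher and 4 lower in cisplatin. Of all genes, 80.7%, 95.3% and 91.8% were called, near the share called here. Plat, the tissue plasminogen activator, rose from 32.5 ± 8.58 CPM in controls to 94.95 ± 14.7 after IRI, 152 ± 20.7 after rhabdomyolysis and 669 ± 259 after cisplatin (limma adjusted p = 4.79e-06, 1.91e-08 and 6.85e-13). Thbs1, whose protein activates latent TGF-beta, rose 1.76-fold, 7.19-fold and 3.43-fold in the same order. Mmp14, a membrane-bound matrix protease, rose 3.27-fold, 4.02-fold and 3.64-fold.

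Of 20 genes known as targets of TGF-beta or activin, 17 were higher and none lower in IRI, 19 higher and 1 lower in rhabdomyolysis, and 20 higher in cisplatin, with medians of 1.27, 2.34 and 1.32. Of all genes, 40.6%, 48.8% and 47.8% were higher and 80.7%, 95.3% and 91.8% were called either way. Timp1, an inhibitor of matrix proteases, rose from 0.262 ± 0.189 CPM in controls (SD, n = 8) to 19.7 ± 4.63, 116 ± 67.5 and 43.1 ± 25.7 after IRI, rhabdomyolysis and cisplatin (SD, n = 4 each; limma adjusted p = 1.12e-08, 2.21e-12 and 1.83e-10). Lox, which cross-links collagen, rose 3.52-fold, 17.4-fold and 9.45-fold in the same order. The gene that was lower in rhabdomyolysis was Itgb6, named after its values were seen; its log2 fold change was -0.70 there, 0.66 in IRI and 1.11 in cisplatin, and it was not called lower in rhabdomyolysis with quantile normalization. The list shares collagen and smooth muscle genes with the stromal markers, whose sums are given beside Tgfb1. It also shares Skil and Pmepa1 with the intracellular genes, and Ltbp2 and Itgb6 with those that release or process the ligands. These genes are counted in both lists.

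Of 16 BMP targets, 3 were tested and they did not move together. Id1 rose 2.32-fold in IRI, 2.41-fold in rhabdomyolysis and 3.61-fold in cisplatin (limma adjusted p = 8.00e-05, 1.04e-04 and 7.27e-07). Id4 fell from 18.1 ± 3.68 CPM in controls to 9.86 ± 2.24 in IRI and 4.67 ± 1.29 in rhabdomyolysis (adjusted p = 2.07e-04 and 1.12e-07) and was 12.8 ± 3.48 in cisplatin (adjusted p = 0.105). Smad9, a Smad of the BMP branch, fell from 2.37 ± 0.449 CPM to 1.18 ± 0.310 in rhabdomyolysis and 1.04 ± 0.477 in cisplatin (adjusted p = 0.00315 and 8.65e-04) and was 2.38 ± 0.594 in IRI (adjusted p = 0.952).

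Of 12 genes of the stress and p53 responses known to induce Gdf15 or to rise with it, 11 were higher after IRI, 11 after rhabdomyolysis and 12 after cisplatin, and none were lower. The share of all genes that was higher was 40.6%, 48.8% and 47.8%, and 80.7%, 95.3% and 91.8% were called either way. Atf3, a stress transcription factor, was 0.794 ± 0.298 CPM in controls and rose to 12.8 ± 3.29 after IRI, 92.7 ± 8.07 after rhabdomyolysis and 34.6 ± 5.54 after cisplatin (limma adjusted p = 5.92e-12, 3.98e-17 and 3.82e-15). Cdkn1a, the p53-induced cell cycle inhibitor, rose from 4.41 ± 1.17 CPM to 77.0 ± 16.5, 394 ± 89.8 and 1110 ± 125. Egr1, an immediate early transcription factor, rose 4.25-fold, 23.8-fold and 32.0-fold. Ccng1, named after its values were seen, was the gene not called after IRI (log2 0.12, limma adjusted p = 0.312) and rhabdomyolysis (-0.20, 0.0849). After cisplatin its value was 2.2 (8.93e-14). Mdm2, named likewise, was called higher in each injury, least after IRI (0.38), then rhabdomyolysis (1.04) and most after cisplatin (2.34). Quantile normalization gave 12, 12 and 11 higher genes in this list. No gene of the pathway lists that was called changed direction with 75th percentile scaling or quantile normalization.

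**Figure D5:**
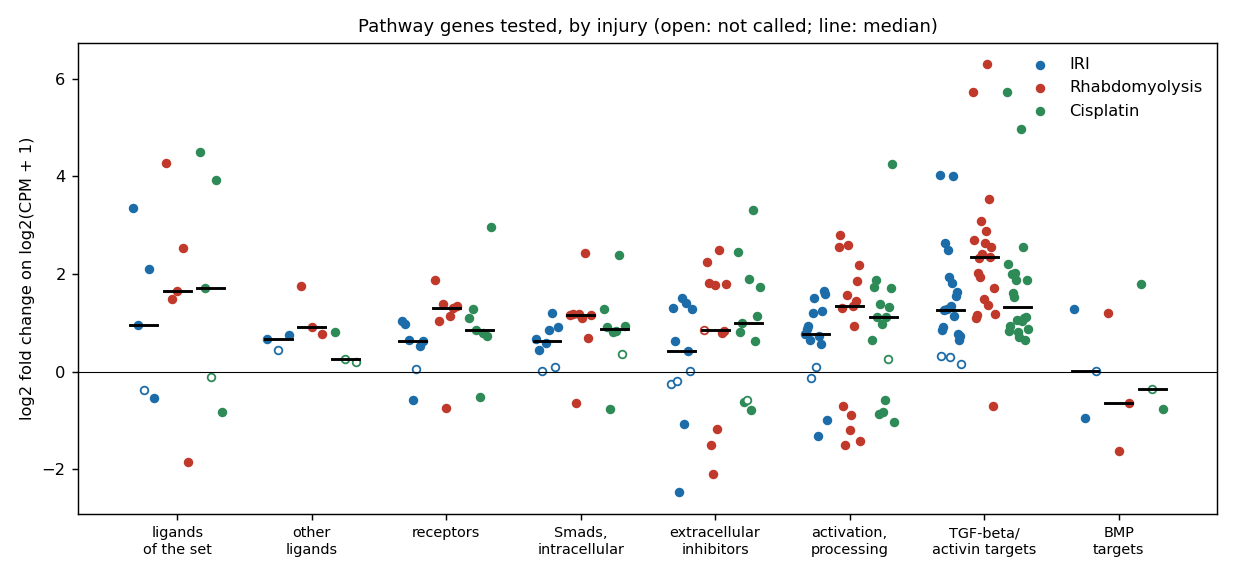
Log2 fold change on log2(CPM + 1), vertical axis, of every tested gene of the ligand set and 7 pathway lists in IRI, rhabdomyolysis and cisplatin, with open points where a change was not called and lines at list medians. The median of the TGF-beta and activin targets was 1.27, 2.34 and 1.32; that of the 3 BMP targets was 0.01, -0.64 and -0.35.

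Over the 20 libraries, the log2(CPM + 1) values of Gdf15 had a Pearson r of 0.93 with Inhbb and 0.90 with Tgfb1, and of 0.39 with Tgfb2. These values describe libraries that fall into separate groups and carry no test. By the same measure, the genes most like Gdf15 were Sfn (0.989), Tmbim1 (0.988) and Efhd2 (0.987). Those most like Tgfb1 were Axl (0.981), Ifitm3 (0.980) and Il33 (0.974), and those most like Inhbb were Cxcl1 (0.980), Birc3 (0.980) and Rap2b (0.979). For Tgfb2 they were BC055111 (0.941), Lama3 (0.929) and Arhgap20 (0.929), and for Inhba Bmp1 (0.932), Vcan (0.917) and Eepd1 (0.910). Bmp7 was most like Tmem106a (0.983), Slc25a42 (0.983) and Hykk (0.979).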

How the data were processed

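Cortex RNA of 20 mice was sequenced, 1 library each. The authors deposited 1 table of CPM values for 6025 genes; the unit was read from the values, since the file header does not name it. Per the submitters' processing notes, FastQC, Bowtie2 2.1.0, RSEM 1.2.15, edgeR and GRCm38/mm10 were used, with no roles given. All values were whole multiples of a step per library, within 0.01 of a read, so reads could be recovered (cisplatin library 2 less surely, its step being near 0.1 CPM). Groups came from the labels, and 0 sample columns were unmatched. The model was limma 3.58.1 (R 4.3.3, empirical Bayes with trend) on log2(CPM + 1) over 5 cells: the controls of each identifier range and the 3 injuries. A mean of 1 CPM was required for testing (5672 genes met it and 353 did not), with Benjamini-Hochberg adjustment per contrast and a two-sided threshold of 0.05. The fold change on this scale understates the change of low genes. Coordinates and exonic lengths came from GENCODE M21 (GRCm38), and promoters from RefSeq (GRCm38.p6).

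The 6 members and all lists were chosen with earlier results of these data known. Named pathway genes are, per list, the 3 with the largest mean absolute log2 fold change among those called in an injury without overlap with its controls, and named similar genes the 3 of highest Pearson r. Of the genes this selects, 2 are not reported here. Alternatives were pseudocount 0.1, no minimum mean, a minimum of 5 CPM, quantile normalization, scaling to the 75th percentile, no trend, robust empirical Bayes, a 1.5-fold minimum, all 8 controls as 1 group, only the libraries compared, a replicate block, each library left out, edgeR 4.0.16 (quasi-likelihood, TMM) and DESeq2 1.42.0 on recovered reads, and, chosen after seeing the data, edgeR without TMM.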

Additional observations from a re-analysis of the deposited data

Results flagged for a closer look

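Of 24 groups of values (6 genes in 4 groups), 1 held a library far from the others, where chance gives about 1 in 20: for Inhba, the first IRI library was lowest, and its gap to the next was 0.868 of the range, on 2 reads. The controls of Inhba had 0 to 3 reads.

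In 8 cases the difference between injuries passed its own test (limma adjusted p under 0.05). Between rhabdomyolysis and cisplatin these were Tgfb2 (log2 difference 1.76), Inhbb (-1.39) and Bmp7 (-1.03). Between the effects of IRI and rhabdomyolysis they were Gdf15 (-0.91), Tgfb2 (-2.03) and Bmp7 (1.32), and between those of IRI and cisplatin Gdf15 (-1.16) and Inhbb (-1.81). Time differs between cisplatin (72 h) and the other injuries (24 h), and cannot be told apart from the agent.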

How the results depend on the processing

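No called value of a member changed direction under any alternative run. With a 1.5-fold minimum, 2 members in place of 4 were called in IRI, Tgfb1 (adjusted p = 0.139) and Bmp7 (0.980) being lost, and 1 in place of 2 for the IRI effect against the cisplatin effect, where Gdf15 was lost (0.213); Gdf15 was also lost between IRI and rhabdomyolysis (0.399). Over all genes that minimum called 1758 in IRI (4578 without it), 2930 in cisplatin (5208), 797 between rhabdomyolysis and cisplatin (3068), 779 between IRI and rhabdomyolysis effects (2949) and 352 between IRI and cisplatin effects (1716); all 8 controls as 1 group gave 2636 for the last. With all 8 controls as 1 group, Tgfb1 also differed between the effects of IRI and rhabdomyolysis (adjusted p = 0.0101) and of IRI and cisplatin (0.00183), the latter also with only the libraries compared (0.0255) and without the fourth rhabdomyolysis library (0.0262). Leaving out 1 library gave the same call in 697 values and a new call in 3, and ended none. The other alternatives gave 462 the same, 15 newly called and 4 lost.

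Scaling moved the median log2 fold change of all genes in IRI from 0.08 to 0.19 (75th percentile) and 0.0042 (quantile), in rhabdomyolysis from 0.31 to 0.44 (75th percentile) and 0.14 (quantile), and in cisplatin from 0.30 to 0.03 (quantile). On recovered reads, with more genes tested, it was 0.23, 0.61 and 0.47 in the same order with edgeR and TMM, and 0.11, 0.55 and 0.35 with DESeq2. With quantile normalization 51.8% of the genes called between rhabdomyolysis and cisplatin were higher in rhabdomyolysis, against 39.6% without it. Of the genes called between the effects of IRI and cisplatin, 55.3% were higher, against 44.5%.

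Controls 1 to 4 and IRI, and rhabdomyolysis and cisplatin, share replicate numbers, but same-numbered libraries did not deviate together (correlations -0.112 to 0.176 and -0.207 to 0.325). With a replicate block, 4 members were called in IRI and 3 between rhabdomyolysis and cisplatin, as without it; over all genes the block gave 4411 and 2834. Depth limits Inhba most, at 0 to 3 reads per control.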
